A study of Mus musculus with 11 samples.

Results

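Slits, Robos, netrin-1 and the netrin receptors Dcc and Unc5 form a pair of guidance systems that steer growing axons and migrating cells. Slit proteins are secreted ligands that mostly repel axons carrying Robo receptors. Netrin-1 attracts axons through Dcc and repels them when an Unc5 receptor takes part. In the olfactory system, Slits and Robo2 are known for sorting the axons of olfactory sensory neurons (OSNs) along the dorsal to ventral axis of the olfactory bulb.

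The genes examined here were the ligands Slit1, Slit2, Slit3 and Ntn1 and the receptors Robo1, Robo2, Dcc, Unc5b and Unc5c. Every probe set that the annotation of the Affymetrix mouse array assigned to exactly 1 of these symbols was taken, whatever its values, which gave 19 probe sets for 9 of the 18193 genes that had a probe set of their own. The array carried 45101 probe sets in all, and each of the 19 passed the minimum mean signal of 20 that was set for testing. Signals are intensities that the authors scaled to GAPDH. Differences are KO minus wild type on the log2(signal + 16) scale, on which changes of dim probe sets are understated.

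RNA came from the whole main olfactory epithelium (MOE) of newborn mice (postnatal day 0) of the strain given as BALB/c, born to heterozygous parents. There were 5 wild type (WT) preparations, all male, and 6 preparations from mice lacking Bcl11b in every cell through a conventional knockout (KO), of which KO 3 and KO 6 were female. Each array held 1 preparation. A whole dissected epithelium mixes OSNs with supporting cells, glia and connective tissue, so fewer cells of a type and less RNA per cell cannot be told apart in any value below. On its brightest probe set, Bcl11b itself lay between 2694.3 and 4122.7 in WT and between 560.5 and 1249.8 in KO.

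Some arrays stood apart. By the signal of the spiked poly-A controls, arrays were divided into a higher set (WT 1, WT 2, KO 4, KO 5 and KO 6) and a lower set (WT 3, WT 4, WT 5, KO 1, KO 2 and KO 3). The cut was placed at the largest gap in the values themselves, 0.34 on the log2 scale. The lower set ran from 7.89 to 8.32 and the higher from 8.66 to 8.96, so the division is not a sharp one. KO 3 and KO 2 had the highest GAPDH 3'/5' ratios, 2.70 and 2.42, against at most 2.27 in WT. KO 5 and KO 6 had the highest means over 8 olfactory bulb neuron genes, 8.24 and 7.25 on the log2 scale, while the other KO arrays lay between 5.95 and 6.52 and WT between 5.68 and 6.65. Gad1, a GABA-synthesizing enzyme of interneurons, which was named after its values were seen, read 829.6 on KO 5 and 223.7 on KO 6, against at most 114.5 on WT arrays. The other genes of the list were mixed. Tbr1, Dlx1, Dlx2 and Reln also lay above every WT array on both, while Gad2, Eomes and Slc17a7 did so on KO 5 or KO 6 but not both. Gad2, another such enzyme, read 187.1 and 162.2, against at most 179.1 in WT. High Tbr1 was not particular to KO 5 and KO 6. It also lay above the highest WT array (30.5) on KO 1 (58.5), KO 2 (55.9) and KO 4 (41.7). Dlx1 read 39.5 on KO 2, against at most 36.2 in WT.

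Among lists of cell type markers, 4 of 7 mature OSN genes were lower in KO (limma, Benjamini-Hochberg), with list means of 10.2 to 10.6 in WT and 9.49 to 9.89 in KO. Of the neuronal precursor genes 2 of 5 were higher (9.56 to 10.1 in WT, 9.93 to 10.7 in KO), and of the erythroid genes 2 of 4 (6.71 to 7.19 in WT, 7.88 to 8.33 in KO). The erythroid genes that passed were Hbb-y and Hbb-bh1, with differences of 2.191 and 2.001. Slc4a1 and Alas2 differed by 0.34 and 0.17 and did not pass (limma, adjusted p = 0.874 and 0.943). The gap between the erythroid list means thus came mostly from Hbb-y and Hbb-bh1. Whether KO held more erythroid cells was not tested. Of the 69 genes tested in the other 12 lists, 0 passed (limma) and 11 had an unadjusted p under 0.05, against 6.92% of all tested probe sets. The 12 lists were those of immature OSNs, sustentacular cells, horizontal basal cells, ensheathing glia, endothelium, mesenchyme, cartilage, bone, vomeronasal neurons, olfactory bulb neurons, macrophages and ciliated cells. What part these shifts have in the values of the guidance genes was not tested.

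Loss of Bcl11b was compared with WT to learn whether the guidance genes change in the MOE. Of the 19 probe sets, 0 were higher and 0 were lower in KO (limma, adjusted p from 0.698 to 0.992), where 0.244% of all 33662 tested probe sets were called higher and 0.211% lower. At an unadjusted p under 0.05 limma picked out 1 of the 19, a Dcc probe set, against 6.92% of all tested. The exact permutation test over the 11 arrays also gave 1, a different one that belongs to Unc5b. The arrays of WT and KO overlapped for every one of the 19, while 1.29% of all tested probe sets had no overlap. The median difference of the 19 was -0.10, with 12 below 0 and 7 above, and the median of all tested probe sets was 0.05.

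These counts leave room for changes of moderate size. The 95% interval of the difference stayed within 1 on the log2 scale in either direction, for 17 of 19 probe sets, and the farthest bound was 1.04. The coefficient of variation between arrays of a group ran from 13.7% to 63.6% in WT and from 20.01% to 74.8% in KO. A mean signal under 100 was found for 11 of the 19. A p that misses the threshold in such data does not show that a gene was the same in both groups.

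**Figure D1:**
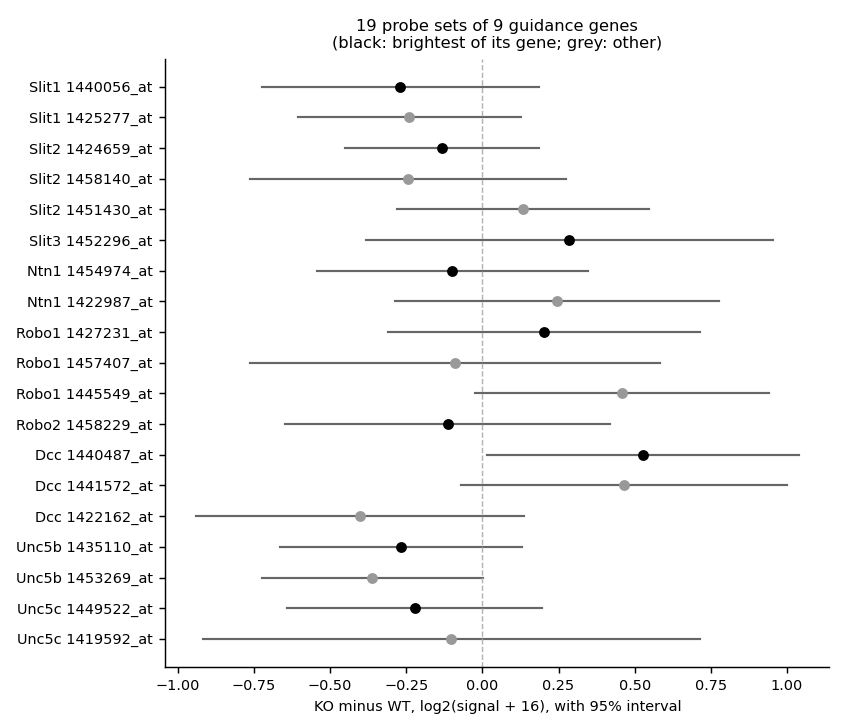
Difference between KO and WT on the log2(signal + 16) scale with its 95% interval from limma for the 19 probe sets, black for the brightest probe set of a gene and grey for the others. Each point lies between -0.40 and 0.53, and only the interval of Dcc 1440487_at leaves out 0.

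Slit2 gave the tightest value among the ligands. This secreted repellent read 1481.5, 1464.1, 1337.3, 1044.1 and 1577.6 on the 5 WT arrays with probe set 1424659_at, and the 6 KO arrays ran from 892.6 through a median of 1255 to 1653.7. The KO range thus took in the whole WT range. Means were 1381 ± 207 (SD, n = 5) and 1268 ± 254 (SD, n = 6), a difference of -0.13 ± 0.15 (SE; limma, adjusted p = 0.971). Its interval put the KO level, with 16 added, between 73.2% and 114% of WT. A dimmer Slit2 probe set, 1458140_at, differed by -0.25 ± 0.25 and the dimmest, 1451430_at, by 0.13 ± 0.20.

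Slit1, a repellent of the same family, had lower means in KO on both of its probe sets. With 1440056_at the WT arrays read 132.9, 163.6, 128.6, 112.7 and 81.7, and KO ran from 67.7 through a median of 88.6 to 165.5. The highest and the lowest of all 11 arrays were both KO. The difference was -0.27 ± 0.22 (SE; limma, adjusted p = 0.94), and that of 1425277_at was -0.24 ± 0.17 (adjusted p = 0.922).

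Slit3, the last of the Slit ligands, was measured by 1 dim probe set, 1452296_at. It read 76.2, 34.3, 11, 54.8 and 46.4 in WT and from 15 through a median of 63 to 87.5 in KO. Both groups held 1 array far below the others, WT 3 and KO 3. The difference of 0.29 ± 0.32 (SE; limma, adjusted p = 0.97) had an interval from -0.38 to 0.95, which put the KO level, with 16 added, between 76.8% and 194% of WT. With 1 array left out it ran from 0.022 (without WT 3) to 0.51 (without KO 3).

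Ntn1 encodes netrin-1, the secreted ligand of Dcc and the Unc5 receptors. Its brighter probe set, 1454974_at, read 209.9, 209.5, 126.8, 105.6 and 109 in WT and from 100.1 through a median of 135 to 188.5 in KO. WT arrays fell into a high pair and a low trio, and no KO array reached the high pair. The means of 152 ± 53.1 (SD, n = 5) and 138 ± 34.4 (SD, n = 6) differed by -0.10 ± 0.21 (SE; limma, adjusted p = 0.987). The other probe set, 1422987_at, averaged 17.9 in WT and 22.6 in KO.

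**Figure D2:**
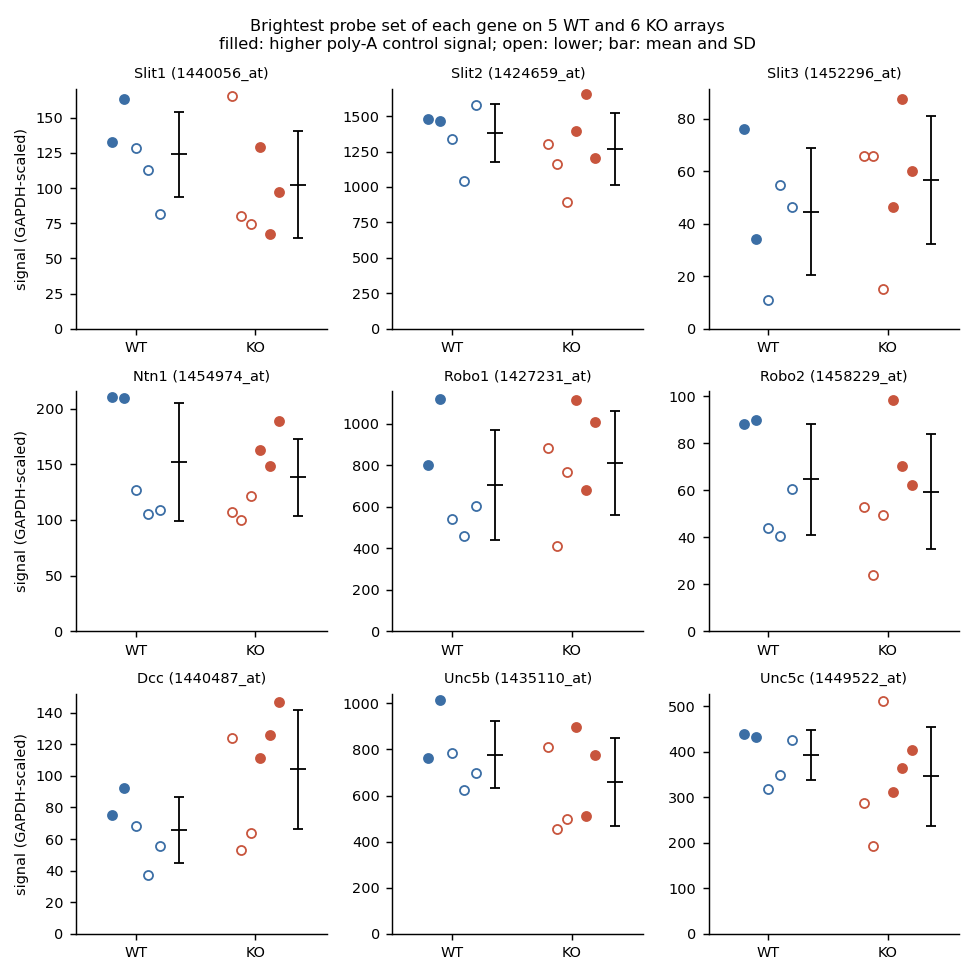
Signal scaled to GAPDH (linear axis from 0) of the brightest probe set of each gene on the 5 WT and 6 KO arrays, filled for arrays of higher poly-A control signal and open for lower, with the mean and SD beside them. The groups overlap in every panel, and the filled points of Ntn1 (148.7 to 209.9) lie above its open ones (100.1 to 126.8).

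Robo1 and Robo2 are transmembrane receptors for Slits. Robo1 read 803.5, 1121, 540.8, 459.4 and 603.9 on the WT arrays with its brightest probe set, 1427231_at, and from 412.6 through a median of 824.4 to 1113 in KO. Nearly the same span was covered by both groups. The difference was 0.20 ± 0.24 (SE; limma, adjusted p = 0.974), with an interval from -0.31 to 0.71. The dim probe set 1445549_at leaned the same way, at 35.0 ± 15.7 (SD, n = 5) in WT and 52.2 ± 13.4 (SD, n = 6) in KO, a difference of 0.46 ± 0.23 (limma, adjusted p = 0.76; exact permutation test, p = 0.0649). The remaining Robo1 probe set, 1457407_at, differed by -0.09 ± 0.32.

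Robo2 had 1 probe set, 1458229_at, and it was dim. It read 88.4, 90, 44.1, 40.4 and 60.4 in WT and from 24 through a median of 57.4 to 98.4 in KO. The lowest and the highest array were both KO. A difference of -0.11 ± 0.25 (SE; limma, adjusted p = 0.987) left the KO level, with 16 added, between 63.8% and 134% of WT.

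Unc5b, a netrin receptor known from vessels and migrating cells as well as from axons, was lower on average in KO on both probe sets. The brighter, 1435110_at, read 763.4, 1013.5, 782.5, 625.9 and 699 in WT and from 452.7 through a median of 643 to 897.4 in KO. KO 2, KO 3 and KO 5 lay below every WT array. The means of 777 ± 146 (SD, n = 5) and 657 ± 191 (SD, n = 6) differed by -0.27 ± 0.19 (SE; limma, adjusted p = 0.916).

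The second Unc5b probe set, 1453269_at, read 117.4, 133.3, 128.4, 91.5 and 121.7 in WT and from 69.7 through a median of 83.1 to 123.3 in KO. KO 4 and KO 6 lay within the WT range and the other KO arrays below it. The difference of -0.36 ± 0.17 had an interval from -0.72 to 0.0012, with an exact permutation p of 0.0433. Over all probe sets it did not pass (limma, adjusted p = 0.725).

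Unc5c, a receptor for repulsion by netrin-1, did not separate the groups either. Probe set 1449522_at read 438.8, 433.5, 317.8, 349.8 and 426.9 in WT and from 194.1 through a median of 339 to 512.1 in KO. Both extremes were KO arrays. The difference was -0.22 ± 0.20 (SE; limma, adjusted p = 0.958), and that of the dimmer 1419592_at was -0.10 ± 0.39.

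Dcc, the attractive netrin-1 receptor, was the gene with the largest difference in either direction, and its 3 probe sets did not move together. The brightest, 1440487_at, read 75.1, 92.6, 68.3, 37 and 55.6 in WT and from 52.8 through a median of 118 to 146.5 in KO. KO 1, KO 4, KO 5 and KO 6 lay above every WT array, and KO 2 and KO 3 within the WT range. The means of 65.7 ± 20.9 (SD, n = 5) and 104 ± 37.4 (SD, n = 6) differed by 0.53 ± 0.24, with an interval from 0.014 to 1.04. The unadjusted limma p was 0.0445 and the adjusted p 0.698, and the exact permutation test gave p = 0.0931.

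Without KO 5 and KO 6, the arrays of highest olfactory bulb signal, that difference was 0.32 ± 0.26 (limma, adjusted p = 0.979). The difference was 0.84 without KO 2 and KO 3, whose GAPDH 3'/5' ratios were the highest, and its adjusted p of 0.0763 (limma) was the smallest that any of the 19 probe sets reached in 530 fits under 29 alternatives. Both sets of arrays were left out after the data had been seen.

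With 1441572_at, Dcc read 21.7, 57.3, 49, 22.7 and 61.6 in WT and from 33.7 through a median of 73.7 to 82.1 in KO, a difference of 0.47 ± 0.25 (limma, adjusted p = 0.819). With 1422162_at it read 72.6, 42.8, 21.6, 56.4 and 20.9 in WT and from 11.9 through a median of 29.7 to 36.7 in KO, a difference of -0.40 ± 0.26 (limma, adjusted p = 0.891). Averaged over its 3 probe sets, Dcc differed by 0.20 (limma, adjusted p = 0.905). Within the groups, over 11 arrays, the deviations of 1441572_at and 1422162_at ran against each other (r = -0.76). Of the 13 pairs of probe sets for the same gene, 11 had a correlation above 0, with a highest value of 0.82. Which transcripts each probe set detects was not analysed here.

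The balance between receptors was compared through the difference of log2 values of a pair of genes on the same array, each by its brightest probe set, which largely cancels whatever scales a whole array. Of the 7 pairs, only Dcc minus Unc5b passed. It read -3.10, -3.24, -3.24, -3.60 and -3.32 on the WT arrays and from -2.84 through -2.62 at the median to -1.89 on the KO arrays. Every KO array lay above every WT array, while the groups overlapped for each of the other pairs. How often pairs of any genes on the array separate in this way was not tested. The shift toward Dcc was 0.80, from -3.30 ± 0.185 (SD, n = 5) to -2.51 ± 0.359 (SD, n = 6), with an exact permutation p of 0.00216, the smallest that the 462 divisions of the arrays allow, and 0.0152 after adjustment over the 7 pairs. The 7 pairs were chosen with earlier results of these data known. The adjusted p of 0.0152 does not account for that choice and is not an error rate for it. Taken alone, Dcc 1440487_at differed by 0.53 and Unc5b 1435110_at by -0.27, and neither passed (limma). Only the shift between Dcc and Unc5b can be read, not the level, since probe sets respond differently.

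**Figure D3:**
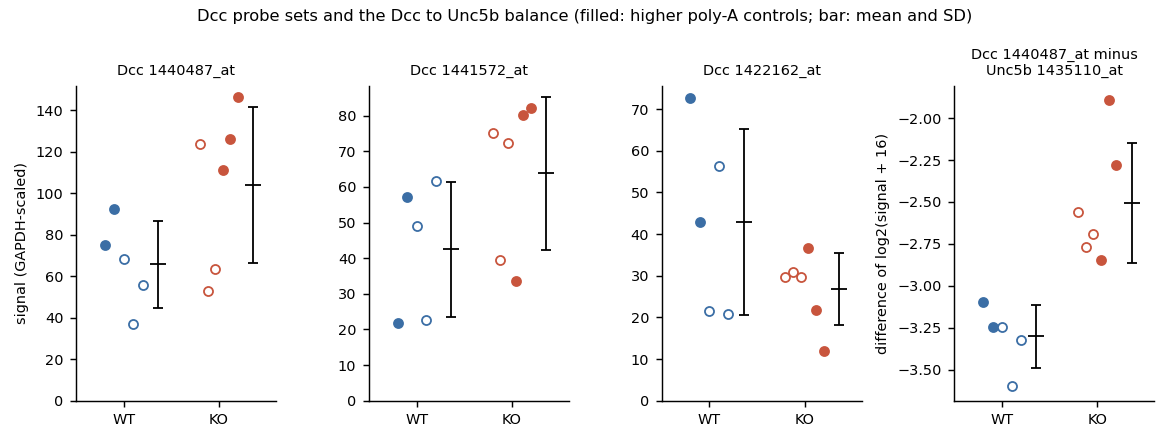
Signal scaled to GAPDH of the 3 Dcc probe sets on each array, and at the right the difference of log2(signal + 16) between Dcc 1440487_at and Unc5b 1435110_at, with group means and SD; filled points mark arrays of higher poly-A control signal. The first 2 probe sets average higher in KO and the last lower, and at the right the KO arrays (-2.84 to -1.89) lie above the WT arrays (-3.60 to -3.10).

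This shift depended on which Dcc probe set was read. Set against both probe sets of Unc5b and both of Unc5c, a comparison added after the data were seen, the 3 Dcc probe sets gave 12 differences, of which 8 were above 0 and 2 passed after adjustment over the 12. Both of these paired Dcc 1440487_at with a Unc5b probe set, with shifts of 0.80 and 0.89 (exact permutation test, adjusted p = 0.026 each). With 1441572_at the shift against Unc5b 1435110_at was 0.73 (exact permutation test, adjusted p = 0.121), and with 1422162_at it was -0.13 (adjusted p = 0.774).

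The call was lost in 11 of 23 alternatives, some of which were too small to pass. With the poly-A set as a term the shift was 0.77 (exact permutation test, adjusted p = 0.07). Without KO 5 and KO 6 the shift of Dcc minus Unc5b was 0.59, and the remaining KO arrays, at -2.84 to -2.56, still lay above WT. There the adjusted exact permutation p was 0.0556, which is 7 times the smallest p that 126 divisions give. Within the arrays of higher poly-A control signal the shift was 0.83, and within those of lower signal 0.72; groups of 2 and 3 arrays cannot reach an exact p under 0.05.

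Among the other pairs, Dcc minus Unc5c shifted by 0.75 (exact permutation test, adjusted p = 0.152). Robo1 minus Robo2 shifted by 0.32, with -0.14 for Slit1 minus Slit2, -0.55 for Slit1 minus Slit3, -0.42 for Slit2 minus Slit3 and -0.05 for Unc5b minus Unc5c. Their adjusted exact p-values ran from 0.157 to 0.877.

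The spread between arrays had its own pattern. WT 4 was the lowest WT array for 6 of the 9 genes and KO 2 the lowest KO array for 6 of the 9, each by the brightest probe set, and these arrays had the lowest median signal of their groups, 56.6 and 62. Median signals over all probe sets ran up to 85.7 in WT and 86.5 in KO.

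Arrays of higher poly-A control signal read higher for 18 of the 19 probe sets, in a limma fit that also held the group. The difference passed for 2 of the 19, where 5.79% of all tested probe sets passed. Ntn1 1454974_at was higher by 0.66 ± 0.14 (limma, adjusted p = 0.0111) and Robo2 by 0.71 ± 0.18 (adjusted p = 0.0339). For both, every array of the higher set lay above every array of the lower set, as it did for 5.81% of all tested probe sets in either direction.

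Ntn1 averaged 210 and 114 in WT arrays of the higher and lower set and 167 and 110 in KO, and Robo2 averaged 89.2 and 48.3 in WT and 76.9 and 42.1 in KO. Over all probe sets the higher set read higher for 82.6%, with a median of 0.20. After each array was scaled on its median, an alternative added after the data were seen, the differences of Ntn1 and Robo2 were 0.42 ± 0.13 and 0.50 ± 0.17 and 0 of the 19 passed (limma, smallest adjusted p = 0.113), where 2.38% of all tested probe sets passed. The labels give no batch, and what separates these arrays is not known from them. The KO minus WT difference had the same sign within both sets for 16 of the 19 probe sets.

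**Figure D4:**
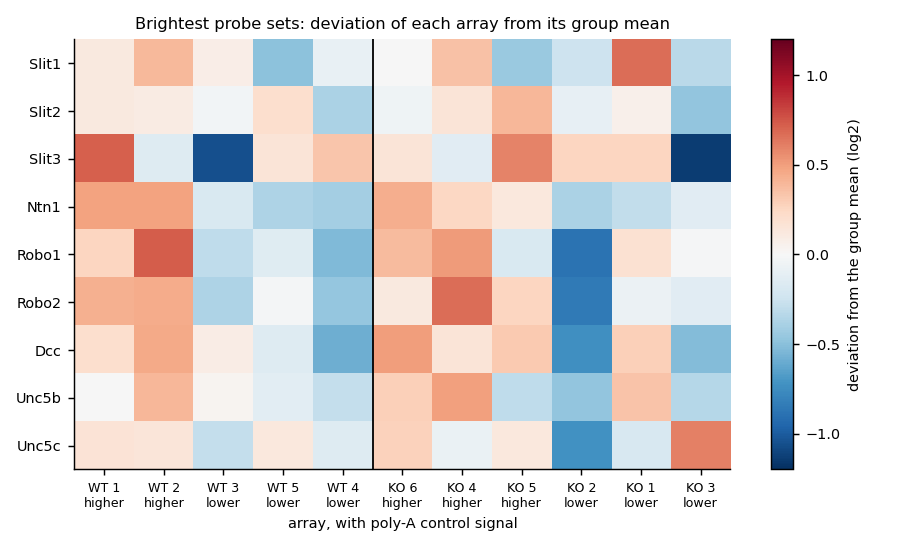
Deviation of each array from its group mean on the log2(signal + 16) scale for the brightest probe set of the 9 genes, with arrays ordered within WT and KO by poly-A control signal from left to right. Ntn1 and Robo2 read higher on every array of the higher poly-A set (148.7 to 209.9 and 62.1 to 98.4) than on any of the lower set (100.1 to 126.8 and 24 to 60.4), and KO 2 is the lowest KO array for 6 of the 9 genes.

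Some of the 9 genes varied together from array to array. Over 11 arrays, in deviations from the group means, 31 of the 36 pairs of genes had a Pearson correlation above 0, and 6 passed an exact permutation test within the groups after adjustment over the 36, while 0 passed by Spearman's rho (smallest adjusted p = 0.0503). None of the 6 held Slit2, Slit3 or Unc5c. Robo1 with Robo2 gave r = 0.885 and rho = 0.855 (exact permutation test, p = 0.00155 and 0.00326, adjusted 0.0279 and 0.0503), and without the 2 arrays farthest from the median r was 0.755. Robo1 with Unc5b gave r = 0.848 and rho = 0.782 (p = 0.000532 and 0.00403, adjusted 0.0192 and 0.0503), with r = 0.746 without those 2. In deviations from the mean of each group and poly-A set these correlations were 0.793 and 0.832.

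The other pairs that passed were Robo1 with Dcc (r = 0.782), Robo1 with Ntn1 (0.786), Robo2 with Ntn1 (0.796) and Slit1 with Unc5b (0.816), each with an adjusted exact permutation p of 0.0443. Their rho values were 0.718, 0.809, 0.827 and 0.80, with unadjusted exact p of 0.0202, 0.00771, 0.00569 and 0.00662, and none passed after adjustment. Within group and poly-A set the correlation of Robo2 with Ntn1 was 0.125 and those of the other 3 pairs 0.617, 0.515 and 0.889. Without the 2 farthest arrays the 4 values were 0.527, 0.689, 0.836 and 0.925.

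Part of this was shared with the array as a whole. The deviations of Robo2 followed the median signal of the array with r = 0.931 and rho = 0.964 (exact permutation test, p = 1.16e-05 and 2.31e-05, adjusted 0.00177 and 0.00354 over 153 correlations), and r was 0.953 without the 2 farthest arrays. Those of Robo1 gave r = 0.849 and those of Dcc r = 0.822 (adjusted exact permutation p = 0.0346 and 0.0368). Their rho values of 0.845 and 0.791 did not pass (adjusted exact permutation p = 0.0539 and 0.0635). After scaling on the array median, 18 of the 36 pairs of genes had a correlation above 0 and 0 passed (exact permutation test, smallest adjusted p = 0.159). Of the 6 pairs named above, Robo1 with Robo2 then gave 0.791, Slit1 with Unc5b 0.760 and Robo1 with Unc5b 0.678. Robo1 with Ntn1, Robo1 with Dcc and Robo2 with Ntn1 gave 0.602, 0.596 and 0.593. Slit1 itself followed the median signal at r = 0.394 and did not pass.

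Of the 153 correlations of the 9 genes with marker list means, median signal and GAPDH ratio, 16 passed after adjustment by Pearson's r, and fewer by Spearman's rho. Unc5b followed the mean of 4 vomeronasal neuron genes, with r = 0.887 and rho = 0.836 (exact permutation test, p = 0.000104 and 0.000729, adjusted 0.00797 and 0.0372), with r = 0.840 without the 2 farthest arrays and r = 0.879 after scaling on the array median. The 4 genes were Meis2, Gnai2, Gnao1 and Trpc2, of which Trpc2 was the dimmest, with a mean of 106 in WT. Which cells gave these signals was not tested. The correlation was not particular to Unc5b or to that list. Robo1, Robo2 and Dcc also passed with that list by r, at 0.881, 0.875 and 0.845 (0.764, 0.557 and 0.366 after that scaling). Unc5b passed with the mesenchyme list as well, at r = 0.907 (0.665 after that scaling). Robo1 followed the mesenchyme list, with r = 0.914 and rho = 0.90 (p = 0.000359 and 0.000509, adjusted 0.0183 and 0.0372), 0.827 without the 2 farthest arrays and 0.536 after that scaling. Dcc followed the endothelial list at r = 0.879 (exact permutation test, adjusted p = 0.0346), which was 0.358 after scaling. By rho, at 0.80, it did not pass (exact permutation test, adjusted p = 0.0804). Robo1 passed with the cartilage list by r and rho, at 0.840 and 0.827, and r was 0.769 after scaling. Unc5b did so with the neuronal precursor list, at 0.836 and 0.864, with r = 0.580 after scaling. Robo2 passed by r with ensheathing glia (0.799, and 0.658 after scaling) and mesenchyme (0.817, 0.204). Dcc also passed with mesenchyme (0.823, 0.169) and Unc5b with endothelium (0.853, 0.571). Shared depth of signal and cell makeup cannot be told apart in these values.

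The same breadth showed when genes were ranked by likeness to Dcc 1440487_at over the 11 arrays, again in deviations from the group means. Of 15132 genes searched, each by its brightest probe set, 1014 had a correlation above 0.8. The closest were Tbkbp1 (0.968), Plxnc1 (0.966), which encodes a semaphorin receptor, Btbd2 (0.964), Rnf144a (0.963) and Insig1 (0.953). These are descriptions over arrays that share their scaling.

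Other genes of the same pathways were read from fixed lists. Of 19 further ligands and receptors of these families, 18 were tested and 0 were called in either direction (limma). An unadjusted p under 0.05 was found for 1 of the 18, against 6.92% of all tested probe sets. Their median difference of 0.19 compares with 0.05 for all tested probe sets. That 1 gene was Unc5d, another Unc5 receptor, at 26.9 ± 14.8 (SD, n = 5) in WT and 48.8 ± 18.9 (SD, n = 6) in KO, a difference of 0.61 ± 0.26 (limma, adjusted p = 0.613). Dscam, a cell adhesion molecule that also binds netrin-1, came next with 0.31 ± 0.18 (adjusted p = 0.834).

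Of 36 intracellular effectors and surface cofactors of Robo and Dcc, 34 were tested and 0 were called (limma), with a median difference of 0.08. An unadjusted p under 0.05 was found for 4 of the 34, against 6.92% of all tested probe sets. Srgap3, a Slit-Robo GTPase-activating protein, read 605.4, 647.4, 568, 492 and 489 in WT and from 645.5 to 1048.8 in KO. KO 2 alone lay below the highest WT array. The difference of 0.55 ± 0.15 did not pass (limma, adjusted p = 0.178). Src, a kinase that acts downstream of Dcc, differed by 0.52 ± 0.20 (adjusted p = 0.514).

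Zonal genes, which OSNs of the dorsal or the ventral epithelium use, were included because Slit and Robo sort axons by zone. Of 7, 6 were tested and 1 was lower in KO by its brightest probe set, with a list median of -0.00112. Ncam2, an adhesion molecule of OSNs outside the dorsal zone, read 339, 562.2, 229.3, 170.2 and 197.5 in WT and from 82 to 139 in KO. No KO array reached the lowest WT array. It fell by 1.21 ± 0.25 on the log2 scale (limma, adjusted p = 0.036), on 1 of its 3 probe sets. Msx1, a homeobox transcription factor, had the next smallest p, with 0.31 ± 0.19 (limma, adjusted p = 0.87).

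The Ncam2 call was close to the threshold. Its adjusted p rose to between 0.0513 and 0.127 (limma) when WT 1, WT 2, WT 3, KO 1, KO 2, KO 3 or KO 5 was left out alone, with differences from -1.27 to -0.96. Without KO 2 and KO 3 together it was -1.06 (adjusted p = 0.083), and without KO 5 and KO 6 it was -1.32 (adjusted p = 0.0694). The part that the lower mature OSN genes have in the Ncam2 value was not tested.

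**Figure D5:**
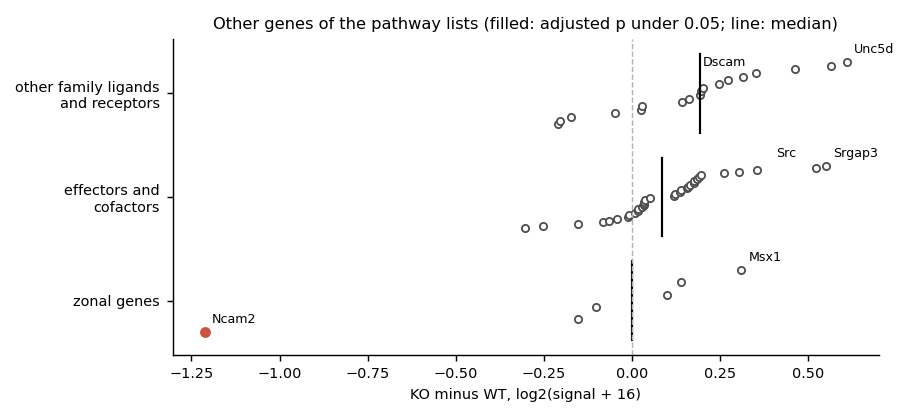
Difference between KO and WT on the log2(signal + 16) scale for each tested gene of the 3 pathway lists, by its brightest probe set, with filled points past the adjusted threshold and a line at each list's median. Ncam2 at -1.21 is the only filled point, and the list medians are 0.19, 0.08 and -0.00112.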

How the data were processed

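Per the labels and the study's methods, cRNA was made from total RNA by 2 rounds of amplification and hybridized to Affymetrix mouse genome arrays. Each deposited number is the intensity of a probe set on an array, which the authors had scaled linearly to GAPDH (GCOS in the submitters' notes, version not given). Since this scaling sets GAPDH to 10000 everywhere, any GAPDH difference would shift all other values. Detection calls and genome positions were not used here. Of 45101 probe sets, 34958 had 1 symbol in the platform annotation, 932 several and 9211 none; 0 symbols changed on a check by Entrez identifier against the RefSeq table of GRCm38.p6.

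Groups came from the labels, which do not name litters, so p-values measure the spread between these preparations, and the number of arrays limits precision. Control probe sets and those with a mean signal under 20 were left out, which left 33662. KO and WT were compared on log2(signal + 16) with limma 3.58.1 (R 4.3.3; lmFit, eBayes with an intensity trend, no covariate), with Benjamini-Hochberg adjustment over all 33662 and a threshold of 0.05. Single values, gene pairs and correlations were tested by exact two-sided permutation of arrays, within groups for correlations. Tested on simulated data for this comparison, the fit recovered 100% of 50 simulated log2 changes of size 2, 58% of 50 of size 1 and 10% of 50 of size 0.5, with 5 false calls in 139.

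Named were all 9 guidance genes with every probe set; in each pathway list, genes past the threshold and the 2 of smallest p; and the 5 genes most like the member probe set of smallest p. Genes of the olfactory bulb, erythroid and vomeronasal neuron lists were named after their values had been seen. The members, gene lists, pairs and tests were chosen with earlier results of these data known. Alternatives were scaling on the array median, quantiles or hybridization controls, pseudocounts of 1 and 64, no filter or one of 100, no trend, array weights, males only, sex, replicate number or poly-A set as a term, each poly-A set alone, the mean over a gene's probe sets, and leaving out each array.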

Additional observations from a re-analysis of the deposited data

Results flagged for a closer look

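Unc5c 1419592_at read 113.8 on WT 2 and 52.1 to 65.5 on the other 4 WT arrays, and the gap to the nearest array took up 0.722 of the group's log2 range. It was the only one of 38 groups (19 probe sets in WT and in KO) with an array set apart in this way, which chance does in about 1 in 20 groups.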

How the results depend on the processing

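In 530 fits of the 19 probe sets under 29 alternatives 0 passed (limma, smallest adjusted p = 0.0763). Signs of small differences turned. With array weights Robo1 1457407_at was 0.064, Robo2 0.024, Ntn1 1454974_at 0.024 and Unc5c 1419592_at 0.021. Without KO 2 and KO 3 they were 0.13, 0.13, 0.0300 and 0.24, Slit2 1424659_at was 0.012 and Unc5b minus Unc5c 0.13. Slit2 1451430_at was -0.011 with scaling on hybridization controls, Ntn1 0.073 as the mean of its probe sets, and Unc5c 1419592_at 0.0045 with a pseudocount of 64. Within the higher poly-A set Robo1 1427231_at was -0.051, Robo1 1457407_at 0.026 and Ntn1 1422987_at -0.0597. Slit1 minus Slit2 was 0.16 within the lower set. Without KO 5 and KO 6 it was 0.064 and Unc5b minus Unc5c 0.061, which in males was 0.19.

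Leaving out 1 array at a time gave Robo1 1457407_at -0.33 to 0.14, Robo2 -0.25 to 0.055, Ntn1 1454974_at -0.20 to 0.022, Unc5c 1419592_at -0.28 to 0.28, Slit1 minus Slit2 -0.31 to 0.032 and Unc5b minus Unc5c -0.16 to 0.14.

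Dcc minus Unc5b kept its sign under all 23 alternatives (0.59 to 0.91; 0.67 to 0.86 with 1 array left out) and passed in 12. It did not pass with the poly-A set as a term (0.77, exact permutation test, adjusted p = 0.07), within either set (0.83 and 0.72), without KO 5 and KO 6 (0.59), without WT 4 (0.72) or without KO 1, 2, 4, 5 or 6, where its adjusted exact permutation p of 0.0556 was the smallest a single pair could give. With the replicate block, over 5 pairs that share only a number (deviations of same-numbered arrays correlated at -0.28 to 0.0085), it was 0.75 (adjusted exact p = 0.35), and 32 sign changes cannot reach 0.05. Dcc minus Unc5c (0.64 to 0.98 with 1 array left out) passed in males (0.97), without KO 3 (0.98) and without KO 2 and KO 3 (1.03), with an adjusted exact permutation p of 0.0278 in each.

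Of the pathway genes, Srgap3 was called higher (count of 1) with quantile normalization, array weights and without KO 2 and KO 3. The count of lower calls was 0 in place of 1 with no filter, no trend, males, sex as a term, the replicate block, the lower poly-A set, without KO 2 and KO 3, and without KO 5 and KO 6, and 0 to 1 with 1 array left out; the pathway count of higher calls then stayed at 0. Over all probe sets, higher calls ran from 19 to 225 (82 as reported) and lower calls from 10 to 276 (71), with 62 and 29 under the replicate block; scaling on the median gave 98 and 131, quantiles 120 and 173 and hybridization controls 59 and 276. Why these values moved was not tested.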
